A study of Mus musculus with 10 samples.

Results

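The collagens and other extracellular matrix genes of the dermis were followed in whole mouse skin with and without STAT3 in keratinocytes. The set holds 41 genes, chosen by name as collagens, matrix proteins and the enzymes that crosslink or remodel them, out of 23282 gene entries per library. All 41 were among the 11536 genes with enough signal to be tested. They comprise 5 fibrillar collagens, 10 other collagens, 6 elastic fibre genes, 7 small proteoglycans, 6 matricellular proteins and 7 genes of crosslinking and turnover. The skin came from C57BL/6 mice aged 5 months. One group, STAT3cKO, carried an ablation of STAT3 restricted to keratinocytes and has 5 libraries, and the other, WT, was wild type and has 5 libraries. The labels leave out the Cre driver, the floxed allele, sex, body site, hair growth phase and whether each library came from its own mouse. The p-values therefore measure the spread between libraries, part of which may be technical. Libraries were made from 500 ng of total RNA by a QuantSeq protocol (Lexogen), in which sequencing starts at the 3′ ends of transcripts.

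Fibroblasts secrete most of the dermal matrix. Type I collagen, a trimer of Col1a1 and Col1a2 chains, and type III collagen, a trimer of Col3a1 chains, form the fibrils that give skin its tensile strength, with type V collagen inside them. Chaperones and hydroxylases in the endoplasmic reticulum fold and modify the chains, propeptidases trim them outside the cell, small proteoglycans such as decorin set fibril width, and lysyl oxidases crosslink the fibrils. Collagens IV, VII, XV and XVIII belong to basement membranes and their anchorage. STAT3 was ablated in the epidermis, while most of these genes are read from dermal cells, so that their comparison asks how the matrix transcripts of the whole tissue stood beside an epidermis without STAT3.

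Values are given on the deposited log2 scale, on which 1 unit is a doubling, and changes are STAT3cKO minus WT on that scale. Because reads were taken from transcript ends, transcript length should weigh little on a value, and levels are set beside each other between genes. The annotation and strand use behind the values are not given, so comparisons between genes are approximate. The estimated depth was 7150000 to 16700000 reads in WT and 7470000 to 18400000 reads in STAT3cKO. Stat3 itself read 9.08 to 10.29 in WT and 9.49 to 10.81 in STAT3cKO, which checks nothing here, since other skin cells express it and the deleted exons are not given. STAT3cKO 2 stood apart: 2617 of the tested genes had no read in it, and it had 10.62 for the Y-linked Ddx3y and no read of Xist, while the other 9 libraries had Xist at 8.65 to 11.01. WT 3 was next, with 1273 tested genes without a read, against 83 in WT 4. Among the 41 matrix genes, reads were missing for 3 in STAT3cKO 2, for 2 each in WT 1 and STAT3cKO 4, and for 1 each in WT 3 and STAT3cKO 3. Changes of more than 1 unit that moved over 1.5 times without STAT3cKO 2 or WT 3 are given with and without them. In bulk skin, fewer cells of a type and less RNA per cell cannot be told apart.

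The 250 bases before the annotated start are printed for Dpt and Serpinh1, the 2 matrix genes called different in the results below, from RefSeq on GRCm38.p6. Capitals mark the only match to TTCNNNGAA, the core of sites bound by STAT factors. That core reads the same on both strands.
Dpt, chr1:164796413-164796662, plus strand: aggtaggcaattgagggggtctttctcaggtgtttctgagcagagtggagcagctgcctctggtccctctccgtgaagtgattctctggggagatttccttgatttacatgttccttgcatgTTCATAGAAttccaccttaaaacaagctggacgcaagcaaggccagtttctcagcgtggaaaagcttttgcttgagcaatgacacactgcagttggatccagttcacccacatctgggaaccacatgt
Serpinh1, chr7:99353240-99353489, minus strand: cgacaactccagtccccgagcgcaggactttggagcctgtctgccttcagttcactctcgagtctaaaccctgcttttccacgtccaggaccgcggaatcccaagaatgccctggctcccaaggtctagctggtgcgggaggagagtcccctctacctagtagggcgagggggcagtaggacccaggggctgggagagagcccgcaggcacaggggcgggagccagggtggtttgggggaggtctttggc
The match in Dpt begins 128 bases before the RefSeq start, and the Serpinh1 window holds none. For Dpt the GENCODE start given below (164796644) lies inside the window, so that the last bases printed belong to the gene by that annotation. RefSeq promoters, 32 in number, were matched for 28 of the 41 matrix genes, and Dpt was the 1 gene of these with the core. The core stood in 1 of the 32 promoters (3.13%) and in 7.02% of all 32851 promoters of the same length. The CCAAT box (CCAAT or ATTGG) stood in 9 of the 32 promoters (28.1%), those of 9 genes, and in 33.8% of all promoters. A match describes these letters and is no evidence of a bound site.

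Across the 41 genes, Dpt, the gene of dermatopontin, fell in STAT3cKO skin and the other 40 did not pass the test. By limma, 0 of 41 were called higher, where 0.529% of all tested genes were, and 1 of 41 was called lower, where 0.459% were. At an unadjusted p under 0.05, 7 were lower (17.1%, against 5.95% of all tested genes) and 0 were higher (against 4.95%). The 7 were Dpt, Ogn, Col4a1, Sparc, Dcn, Col6a2 and Col15a1, which encode a collagen-binding protein, 2 small proteoglycans, 3 collagen chains outside the fibrillar class and the matricellular protein osteonectin. The change was negative in 27 of 41 genes (65.9%) and in 56.2% of all tested genes, and its median was −0.26 against −0.16. After quantile normalization 25 were negative (median −0.28), and with libraries brought to an equal total 24 (median −0.15), settings that each moved the median of all tested genes by 0.11. Without STAT3cKO 3 the median of the 41 was 0.02, and without STAT3cKO 5 it was −0.60. In 1 gene, Pcolce, every STAT3cKO library lay below every WT library, as in 1.72% of all tested genes, and in 0 genes did every STAT3cKO library lie above, as in 1.71%.

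**Figure D1:**
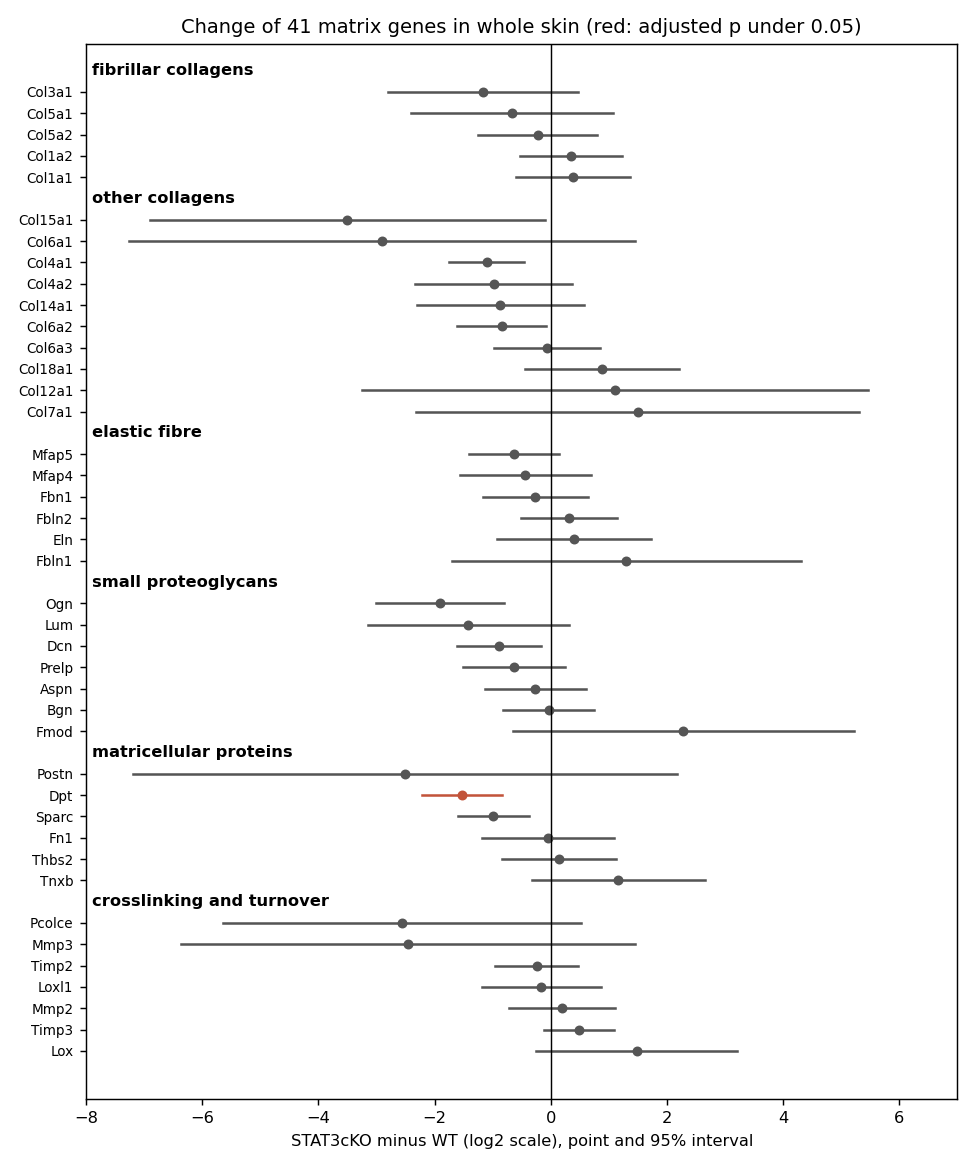
Change of each of the 41 matrix genes, STAT3cKO minus WT on the log2 scale (x axis), with its 95% interval, ordered by change within the 6 groups. Dpt, in red at −1.53, is the 1 gene with an adjusted p under 0.05, and the widest intervals belong to genes with no read in a library.

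The abundant matrix genes leaned further to the lower side than the set as a whole. Of the 28 genes with a mean of at least 9 over the 10 libraries, 21 had a negative change (75%), against 53.1% of the 3268 tested genes at that level, and 6 were lower at an unadjusted p under 0.05 (21.4%), against 10.2%. Decorin (Dcn) had the highest level of the 41 in both groups. In WT it was followed by Sparc, Col3a1, Dpt and Col1a1, and in STAT3cKO by Col1a1, Sparc, Col1a2 and Timp3. Col3a1 went from rank 3 to rank 6 and Dpt from rank 4 to rank 9 among the 41. Around these ranks the STAT3cKO means differed by less than their SDs, and the order of neighbours is not resolved: Sparc at 13.48 ± 0.70 (SD, n = 5) stood beside Col1a1 at 13.58 ± 1.11 (SD, n = 5).

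None of the 5 fibrillar collagens passed the test, and their STAT3cKO libraries were spread far wider than the WT libraries. Col1a1 (chromosome 11, 94936224 to 94953042, mm10) encodes the chain that type I collagen holds in a pair. WT 1 to 5 read 12.56, 13.14, 12.98, 13.90 and 13.43, and STAT3cKO 1 to 5 read 14.20, 12.84, 12.38, 13.33 and 15.16. STAT3cKO 1 and 5 stood above all WT libraries, STAT3cKO 3 below all of them, and the groups overlapped. The change of 0.38 (SE 0.46, limma adjusted p = 0.785) was −0.017 without STAT3cKO 5. Col1a2 (chromosome 6, 4504814 to 4541544), the partner chain, read 12.59, 13.13, 12.61, 13.14 and 12.63 in WT and 13.79, 12.48, 11.93, 12.95 and 14.68 in STAT3cKO. The same 2 libraries were high, and the change of 0.35 (SE 0.41, limma adjusted p = 0.781) was −0.031 without STAT3cKO 5.

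Col3a1 (chromosome 1, 45311538 to 45349706) was the most even of the fibrillar chains in WT and the most uneven in STAT3cKO by range after Col5a1. It read 13.54, 13.50, 13.41, 13.77 and 13.74 in WT and 13.23, 10.48, 10.79, 12.84 and 14.78 in STAT3cKO. Of the STAT3cKO libraries 4 lay below all WT libraries and STAT3cKO 5 lay above all of them. The group means were 13.59 ± 0.16 and 12.42 ± 1.79 (SD, n = 5 each). The change was −1.17 (SE 0.73, limma adjusted p = 0.588), or −0.68 without STAT3cKO 2. Col5a1 and Col5a2, chains of the collagen that nucleates fibrils, had changes of −0.67 and −0.23, with STAT3cKO ranges of 5.97 to 11.06 and 9.49 to 12.67. For all 5 chains the SD was larger in STAT3cKO than in WT. A larger STAT3cKO SD was seen in 28 of the 41 genes (68.3%) and in 60.5% of all tested genes, and among genes with a mean of at least 9 in 21 of 28 (75%) and in 53.4%.

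**Figure D2:**
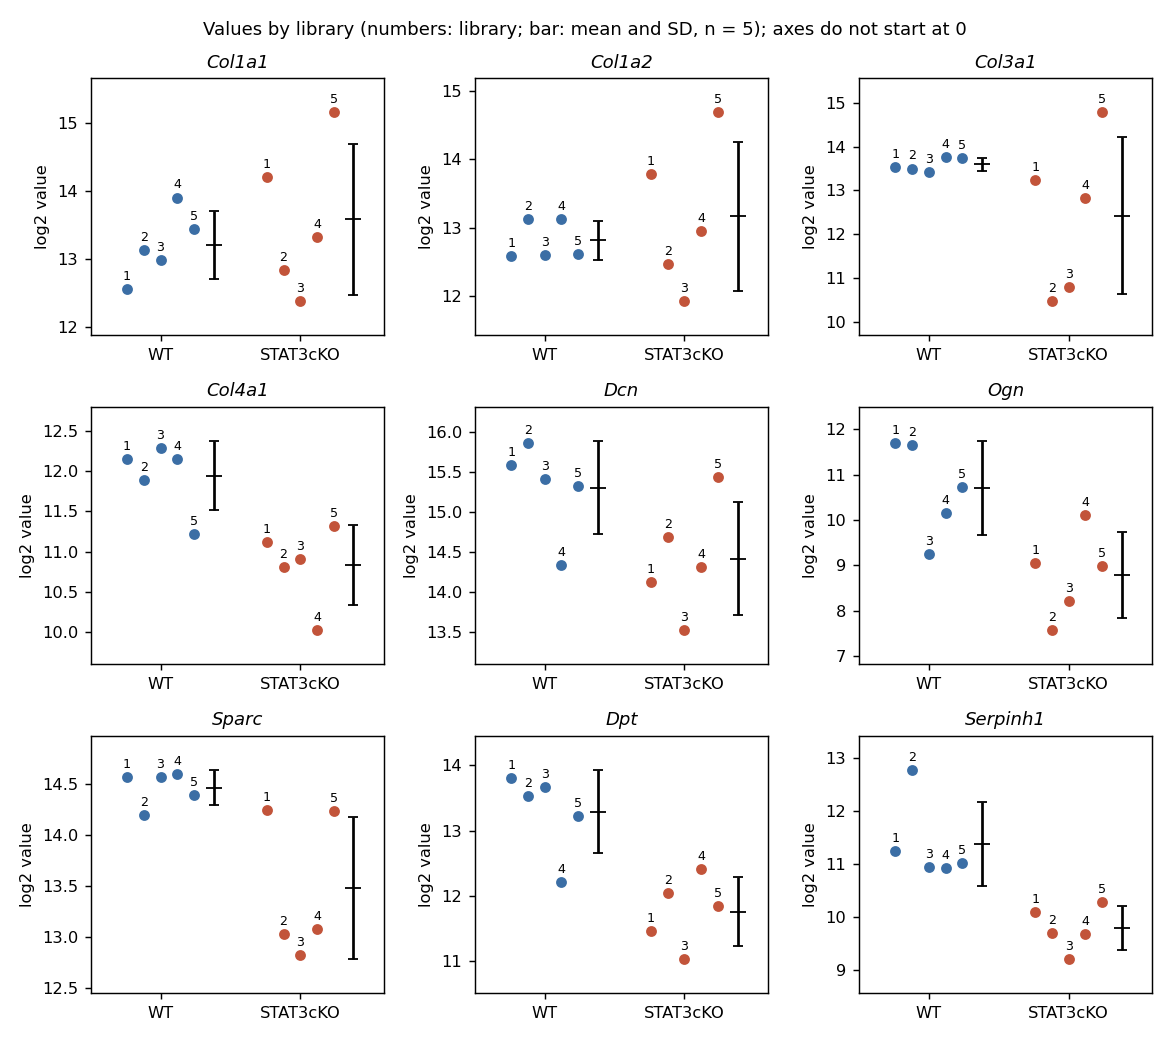
Deposited log2 value (y axis, not from 0) in each of the 10 libraries for 8 matrix genes and Serpinh1, with the library number beside each point and bars for mean and SD (n = 5). Col1a1, Col1a2 and Col3a1 spread widely in STAT3cKO, from 10.48 to 14.78 in Col3a1, while all 5 STAT3cKO libraries of Serpinh1 lie below the WT libraries.

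Within a library, the type I chains stood higher relative to Col3a1 in STAT3cKO than in WT. This quantity, which does not depend on the scaling of a library, was chosen after the values were seen and is given as a description without a test. For Col1a1 minus Col3a1, WT 1 to 5 gave −0.98, −0.36, −0.44, 0.13 and −0.31, whereas STAT3cKO 1 to 5 gave 0.97, 2.36, 1.59, 0.49 and 0.38. It was above 0 in 1 of 5 WT and 5 of 5 STAT3cKO libraries, and the groups did not overlap, with means of −0.39 ± 0.40 and 1.16 ± 0.83 (SD, n = 5 each). The difference Col1a2 minus Col3a1 was −1.12 to −0.37 in WT and −0.10 to 2.01 in STAT3cKO, with means of −0.78 ± 0.29 and 0.74 ± 0.85 (SD, n = 5 each), and these groups did not overlap either. Both differences contain Col3a1, and the type I chains moved together, so the second is no independent observation. Of the chain differences computed, only these were without overlap, and the share among other gene pairs was not computed. STAT3cKO 5, in which all 3 genes were above every WT library, and STAT3cKO 3, in which all 3 were below, lay on the same side of the WT libraries in both differences. Without STAT3cKO 2, the library with the largest difference, the gap between the group means went from 1.55 to 1.25 for Col1a1 and from 1.52 to 1.20 for Col1a2. The difference Col1a1 minus Col1a2 was 0.36 to 0.47 in STAT3cKO, within the WT range of −0.03 to 0.81.

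**Figure D3:**
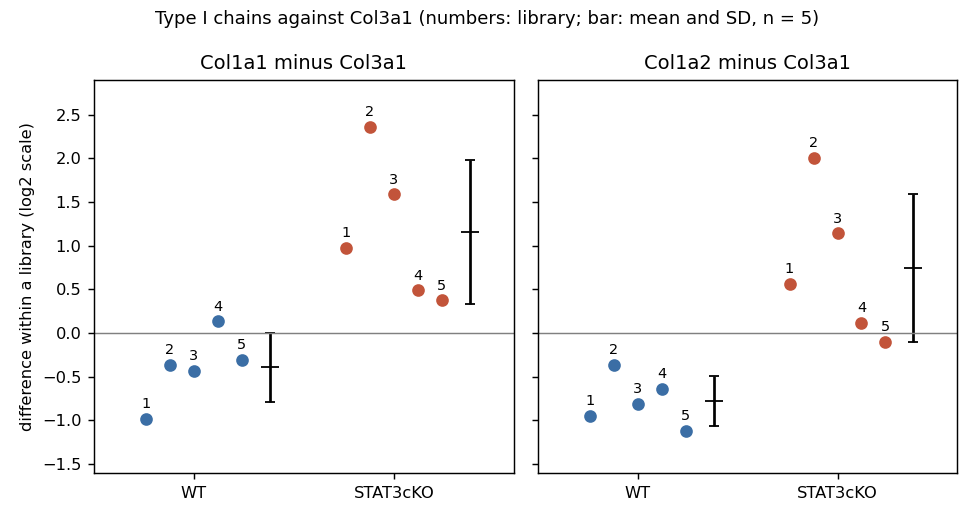
Difference between a type I collagen chain and Col3a1 within each library (log2 scale, y axis), Col1a1 on the left and Col1a2 on the right, with library numbers and bars for mean and SD (n = 5). STAT3cKO libraries lie above all WT libraries in both panels, with means of 1.16 and 0.74 against −0.39 and −0.78.

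Chains that assemble into 1 trimer were compared across the 10 libraries for 5 pairs. Col1a1 and Col1a2 moved together closely (r = 0.947, permutation p = 8.00e-05, adjusted over the 5 pairs 0.000400, rho = 0.939, permutation p = 0.000230, adjusted 0.00115). Without STAT3cKO 1 and STAT3cKO 5, the libraries farthest from the median of Col1a1, r was 0.787 (permutation p = 0.0211), and with the group means removed it was 0.944. Col6a1 and Col6a3, chains of the beaded filaments of type VI collagen, had r = 0.845 (permutation p = 0.0163, adjusted 0.0406, rho = 0.552, permutation p = 0.104, adjusted 0.130), and r = 0.930 with the group means removed. It rested on STAT3cKO 2: r was 0.390 (adjusted permutation p = 0.307) without that library, 0.842 without STAT3cKO 3 and −0.00 without both. Its adjusted p was also above 0.05 when WT 1, WT 4, STAT3cKO 1, STAT3cKO 3 or STAT3cKO 5 was left out. Col6a1 and Col6a2 had r = 0.633 (permutation p = 0.0895, adjusted 0.112, rho = 0.745, permutation p = 0.0164, adjusted 0.0400), r = 0.720 without STAT3cKO 2 and STAT3cKO 3, and r = 0.936 (adjusted permutation p = 0.00599) without STAT3cKO 2 alone, with the same adjusted p without STAT3cKO 3 alone. After quantile normalization that pair had r = 0.790 (adjusted permutation p = 0.0263), and without STAT3cKO 2 and WT 3 r = 0.953 (adjusted 0.00527). Col5a1 and Col5a2 had r = 0.655 (permutation p = 0.0439, adjusted 0.0732, rho = 0.394, permutation p = 0.261, adjusted 0.261), and r = −0.04 without STAT3cKO 3 and STAT3cKO 5, while leaving out WT 2 gave 0.731 (adjusted permutation p = 0.0473). Col4a1 and Col4a2 had r = 0.486 (permutation p = 0.150, adjusted 0.150, rho = 0.721, permutation p = 0.0240, adjusted 0.0400), and r = 0.661 without WT 3 and STAT3cKO 4. The pairs share libraries and their scaling, so these coefficients also carry what a whole library has in common.

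None of the 10 other collagens passed the test. The change was negative in 7 of them (Col6a3 turned positive with equal library totals), the group's median was −0.86, and 3 were lower at an unadjusted p under 0.05. Col4a1 (chromosome 8, 11198423 to 11312826), a chain of the basement membrane network, read 12.16, 11.90, 12.29, 12.16 and 11.22 in WT and 11.12, 10.81, 10.92, 10.03 and 11.32 in STAT3cKO. Only STAT3cKO 5 reached above the lowest WT library, and the change was −1.11 (SE 0.31, limma adjusted p = 0.102). Its partner Col4a2 read 10.84, 11.28, 10.59, 11.50 and 10.27 in WT and 10.79, 7.20, 10.14, 10.23 and 11.22 in STAT3cKO, where STAT3cKO 2 was far below the rest. The change was −0.98 (limma adjusted p = 0.587) and −0.30 without STAT3cKO 2. The genes lie head to head and their annotated exons overlap at the 5′ ends, away from the 3′ ends that were read.

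None of the 3 type VI chains, which form filaments around cells and between fibrils, passed the test. Col6a1 read 11.27, 10.39, 10.78, 10.46 and 10.15 in WT and 10.52, no read, 7.85, 9.57 and 10.52 in STAT3cKO, and its change of −2.91 (limma adjusted p = 0.606) became −0.997 without STAT3cKO 2. Col6a2 read 11.05, 10.48, 10.36, 10.65 and 10.52 in WT and 10.72, 9.38, 8.73, 9.96 and 10.07 in STAT3cKO. Of its STAT3cKO libraries 4 lay below all WT libraries, and the change was −0.84 (SE 0.36, limma adjusted p = 0.408). Col6a3 differed by −0.07 (0.38 without STAT3cKO 2), with 9.58 to 12.37 in STAT3cKO and 10.85 to 11.69 in WT. Col15a1, of the zone next to basement membranes, had the lowest change of the 41, −3.50 (SE 1.55, unadjusted p = 0.0446, limma adjusted p = 0.446), and −1.94 without STAT3cKO 2, where it had no read.

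Col7a1, which builds the fibrils that anchor the epidermis to the dermis and is made by keratinocytes as well as fibroblasts, was weakly detected. It read 0, 2.51, 7.23, 5.38 and 6.04 in WT and 6.13, 1.30, 6.92, 7.06 and 7.24 in STAT3cKO, where the value in STAT3cKO 2 is that of a single read. The change was 1.50 (limma adjusted p = 0.785), 2.60 without STAT3cKO 2 and 2.25 without WT 3, and the groups overlapped. Without WT 1, which had no read, it was 0.44. Of the remaining chains, Col12a1 and Col14a1, which decorate fibrils, had changes of 1.10 and −0.87, and Col18a1, the precursor of endostatin, 0.88. The change of Col12a1 was 1.87 without STAT3cKO 2, 0.010 without STAT3cKO 5 and −0.069 without WT 1. Its values ranged from no read to 10.17 in STAT3cKO and from no read to 7.82 in WT.

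The 6 elastic fibre genes showed no common direction: 3 changes were negative, 3 were positive, the median was 0.02, and none passed the test. Mfap5, a microfibril component, read 10.93, 10.46, 10.60, 9.74 and 10.54 in WT and 8.90, 9.41, 9.84, 10.58 and 10.39 in STAT3cKO, a change of −0.63 (SE 0.37, limma adjusted p = 0.554). STAT3cKO 1 and STAT3cKO 2 were below all WT libraries and the other 3 were within the WT range. Fbln1, a fibulin of elastic fibres and basement membranes, read 8.55, 8.65, no read, 7.29 and 9.28 in WT and 8.31, 7.88, 7.87, 7.43 and 8.85 in STAT3cKO. Its change of 1.30 (limma adjusted p = 0.759) rested on WT 3 and was −0.38 without it. Elastin (Eln) differed by 0.40, fibrillin (Fbn1) by −0.26, Fbln2 by 0.31 and Mfap4 by −0.44, with the highest value of Eln, Fbn1 and Mfap4 in STAT3cKO 5. These changes hung on single libraries: Eln was 0.0026 without WT 3, Fbln2 0.075 and Fbn1 −0.074 without STAT3cKO 2, and Mfap4 −0.066 without STAT3cKO 3.

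Among the 7 small proteoglycans, 6 had a negative change, the median was −0.64, and none passed the test. That of Bgn turned positive after quantile normalization and with equal library totals. Decorin (Dcn, chromosome 10, 97479609 to 97518143), which binds collagen fibrils and limits their width, read 15.59, 15.87, 15.41, 14.33 and 15.33 in WT and 14.13, 14.69, 13.52, 14.31 and 15.44 in STAT3cKO. The groups overlapped through WT 4, the lowest WT library, and STAT3cKO 5, the highest STAT3cKO library, and the change was −0.89 (SE 0.34, limma adjusted p = 0.322). Ogn (osteoglycin, chromosome 13, 49608046 to 49624501) read 11.69, 11.66, 9.25, 10.15 and 10.72 in WT and 9.05, 7.57, 8.21, 10.10 and 8.99 in STAT3cKO. All STAT3cKO libraries but STAT3cKO 4 lay below every WT library, and the change of −1.91 (SE 0.52, limma adjusted p = 0.0978) missed the threshold. Lumican (Lum) went from 12.04 ± 0.47 to 10.63 ± 1.87 (SD, n = 5 each), with 8.88 and 8.50 in STAT3cKO 2 and STAT3cKO 3 and 12.87 in STAT3cKO 5. Prelp, Aspn and Bgn, related leucine-rich proteoglycans, had changes of −0.64, −0.27 and −0.04. Fmod (fibromodulin), the 1 with a positive change (2.28, limma adjusted p = 0.565), read 1.36 to 7.76 in WT and 6.87 to 8.32 in STAT3cKO. Its lowest value, in WT 5, is that of a single read, and the change was 1.34 without that library.

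Of the 6 matricellular genes Dpt fell. The median change of the group was −0.52, with 4 negative changes, of which that of Fn1 turned positive after quantile normalization and with equal library totals. Dermatopontin (Dpt, chromosome 1, 164796644 to 164824266) binds decorin and promotes the assembly of collagen fibrils. It read 13.80, 13.53, 13.67, 12.22 and 13.22 in WT and 11.46, 12.04, 11.03, 12.41 and 11.84 in STAT3cKO. Every STAT3cKO library lay below 4 of the WT libraries, and WT 4 lay below STAT3cKO 4, so that the groups overlapped at that point. The group means were 13.29 ± 0.64 and 11.76 ± 0.53 (SD, n = 5 each). Expression was thus 2.89-fold lower, −1.53 on the log2 scale with a 95% interval of −2.22 to −0.84 (SE 0.33, limma adjusted p = 0.0287). The change stayed between −1.80 and −1.35 when any 1 library was left out, while the call held in 3 of those 10 fits (without WT 4, STAT3cKO 2 or STAT3cKO 4). It was lost without WT 1, 2, 3 or 5 or STAT3cKO 1, 3 or 5, where the adjusted p reached 0.103 (without WT 3), and without STAT3cKO 2 and WT 3 together (0.108).

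Sparc (osteonectin, chromosome 11, 55394500 to 55423183), a collagen-binding glycoprotein, was next in this group. It read 14.57, 14.20, 14.58, 14.60 and 14.39 in WT and 14.25, 13.03, 12.82, 13.08 and 14.24 in STAT3cKO. STAT3cKO 2, 3 and 4 lay more than 1 unit below all WT libraries, while STAT3cKO 1 and 5 lay at the level of WT 2. The change was −0.99 (SE 0.29, limma adjusted p = 0.121). Periostin (Postn), which links collagen to tenascins, had a change of −2.51 (limma adjusted p = 0.686) that was −0.55 without STAT3cKO 2, where it had no read. Fibronectin (Fn1), tenascin-X (Tnxb) and Thbs2 had changes of −0.04, 1.16 and 0.14. Tnxb read 6.09 to 8.10 in WT and 7.64 to 9.12 in STAT3cKO, and annotated exons of a pseudogene lie on its other strand.

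The 7 genes of crosslinking and turnover had 4 negative and 3 positive changes, a median of −0.16 and no call. Lox, which oxidises lysines so that collagen and elastin crosslink, read 9.98, 10.02, 9.89, 7.86 and 7.70 in WT and 10.64, 12.06, 8.08, 10.02 and 12.06 in STAT3cKO. STAT3cKO 1, 2, 4 and 5 lay at or above the highest WT library, STAT3cKO 3 lay low, and the change was 1.48 (SE 0.79, limma adjusted p = 0.535). Pcolce, which speeds the trimming of the procollagen C-terminus, read 10.39, 10.04, 9.41, 9.77 and 9.92 in WT and 8.47, 1.29, 8.83, 8.88 and 9.25 in STAT3cKO. All STAT3cKO libraries lay below all WT libraries. Its change was −2.56 (SE 1.38, limma adjusted p = 0.544) with STAT3cKO 2, in which the value is that of 1 read, and −1.04 (limma adjusted p = 0.199) without it. Mmp2, a gelatinase, read 9.52, 10.27, 9.62, 9.64 and 9.73 in WT and 10.19, 10.51, 8.83, 8.95 and 11.24 in STAT3cKO, a change of 0.19. Mmp3 had no read in STAT3cKO 3 and 4 and 10.03 in STAT3cKO 5, against 6.85 to 8.30 in WT. Loxl1, Timp2 and Timp3, a crosslinking enzyme and 2 inhibitors of metalloproteinases, differed by −0.16, −0.25 and 0.49.

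The genes that make and process these proteins were read from a separate list, of which 56 were tested. Of these 0 were called higher, where 0.529% of all tested genes were, and 1 was called lower, where 0.459% were. The change was negative in 35 (62.5%, against 56.2% of all tested genes), with a median of −0.38 against −0.16. Of 17 collagen synthesis genes 13 had a negative change (76.5%), with a median of −0.76, and Serpinh1 fell. Serpinh1 (chromosome 7, 99345376 to 99353239) encodes HSP47, the chaperone that binds procollagen in the endoplasmic reticulum. It read 11.25, 12.76, 10.95, 10.92 and 11.02 in WT and 10.10, 9.70, 9.22, 9.69 and 10.29 in STAT3cKO. All STAT3cKO libraries lay below all WT libraries, and the change was −1.58 (SE 0.37, limma adjusted p = 0.0499), or 2.99-fold lower. That call sits at the threshold: it held in 1 of the 10 fits that leave out a library (without WT 4), where the adjusted p reached 0.139 (without WT 2), and was 0.0686 with libraries brought to an equal total. Plod3, a lysyl hydroxylase, was the other gene of the list whose groups did not overlap on the lower side, as in 1.72% of all tested genes. Its change was −3.17 (limma adjusted p = 0.347), or −1.69 without STAT3cKO 2, where it had no read. Pcolce2, named after its values were seen, was lower by −1.59 (limma adjusted p = 0.0692).

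In the other pathway groups no gene passed the test. Among 19 matrix assembly genes the median change was −0.67, and the lowest unadjusted p belonged to Loxl2 (−1.93), Tgm2 (−0.93) and Ltbp1 (−1.43, and −0.42 without STAT3cKO 2), with limma adjusted p-values of 0.521, 0.522 and 0.596. Among 7 further turnover genes, with a median of −0.62, these were Mmp9 (−5.33), Adamts1 (1.67) and Mmp14 (0.78), with 0.196, 0.411 and 0.588. Among 13 genes of TGF-beta signalling and other regulators of matrix transcription the median was −0.05. There the lowest p belonged to Cebpb (1.66), Ctgf (1.33) and Sp1 (0.69), with limma adjusted p-values of 0.144, 0.519 and 0.583. Cebpb, a transcription factor of stress and differentiation, read 7.62 to 10.21 in WT and 10.29 to 12.21 in STAT3cKO. Its groups did not overlap, on the higher side, as in 1.71% of all tested genes.

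Averaged over the 41 genes, the STAT3cKO libraries differed more from each other than the WT libraries did. This mean was 10.07 to 10.46 in WT, and 10.26, 8.75, 9.18, 9.65 and 11.07 in STAT3cKO 1 to 5. Most groups of genes shared this, but not all. The SD between libraries of the group mean was 0.20 in WT and 1.38 in STAT3cKO for the fibrillar collagens. For the other collagens it was 0.60 and 1.54, for the matricellular genes 0.41 and 1.10, and for crosslinking and turnover 0.45 and 0.98. It was 0.55 and 0.55 for the small proteoglycans, and 0.84 and 0.70 for the elastic fibre genes, where WT 3 had no read of Fbln1. Missing reads also weigh on the mean over the 41 genes and on other group means. STAT3cKO 2 had no read of Col6a1, Col15a1 and Postn and a single read of Col7a1 and Pcolce. Mmp3 had no read in STAT3cKO 3 and 4, Col12a1 none in WT 1 and STAT3cKO 4, and Col7a1 none in WT 1. The fibrillar collagens and small proteoglycans had reads in every library. STAT3cKO 5 lay above the highest WT library in 21 of the 41 genes (51.2%, against 19.1% of all tested genes) and in 5 of 5 fibrillar collagens. STAT3cKO 3 lay below the lowest WT library in 24 of 41 (58.5%, against 24.9% of all tested genes) and in 5 of 5 fibrillar collagens. STAT3cKO 2 did so in 19 (46.3%, against 32.6%) and STAT3cKO 4 in 14 (34.1%, against 17.4%). On the linear scale these genes made up 1.19 to 1.62% of a WT library's total and 1.35, 0.840, 0.604, 1.05 and 2.36% of that of STAT3cKO 1 to 5. The group means were 1.44 ± 0.18% and 1.24 ± 0.68% (SD, n = 5 each), and the WT range lay inside the STAT3cKO range. The fibrillar collagens alone took 0.246 to 0.365% of a WT library and 0.110 to 0.953% of a STAT3cKO library.

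**Figure D4:**
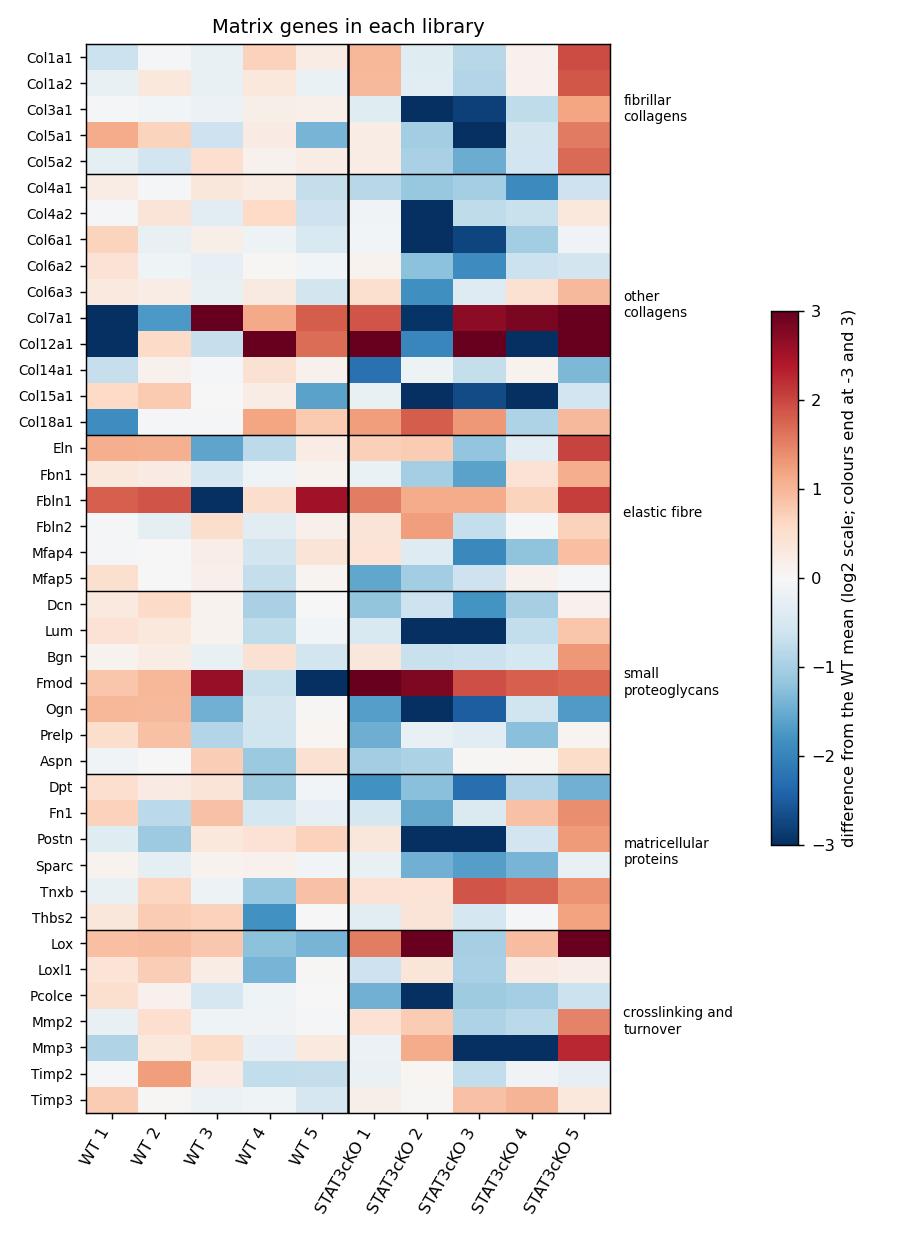
Difference of each library (columns) from the WT mean of each of the 41 genes (rows, in 6 groups), on the log2 scale, with colours ending at −3 and 3. STAT3cKO 5 is mostly red, with 21 genes above all WT libraries, STAT3cKO 3 is mostly blue, with 24 below all of them, and Dpt is blue in all 5 STAT3cKO libraries.

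Markers of the cells that make matrix, and of their neighbours, moved as follows. Of 18 tested fibroblast markers 14 had a negative change (77.8%, against 56.2% of all tested genes), with a median of −0.61. Clec3b (tetranectin) fell, from 11.34 ± 0.51 to 9.32 ± 0.36 (SD, n = 5 each). Its change was −2.02 (SE 0.33, limma adjusted p = 0.00312), or 4.06-fold lower, and it was called in 10 of the 10 fits that leave out a library. Log2 of the summed fibroblast markers was 14.95 to 16.67 in WT and 15.23 to 16.08 in STAT3cKO, where STAT3cKO 3 was lowest and STAT3cKO 5 highest. The sum was lowest of all in WT 4, the WT library lowest in Dpt and Dcn but highest in Col1a1, Col1a2 and Col3a1. All 10 adipocyte markers had a negative change, with a median of −2.40 and sums of 17.00 to 19.46 and 15.58 to 18.05, and Car3, a carbonic anhydrase of fat, fell by 3.06 (limma adjusted p = 0.0209). All 8 skeletal muscle markers were negative with none called (median −2.32, lowest p in Actn3, −4.30, adjusted 0.365), with sums of 13.96 to 17.86 and 11.97 to 16.99. All 8 macrophage markers were also negative with none called (median −0.66, lowest p in Lyz2, −1.999, adjusted 0.100), with sums of 13.06 to 14.45 and 11.86 to 14.09.

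Markers of the epidermis lay on the other side. All 6 suprabasal keratinocyte markers had a positive change with none called (median 1.34, lowest p in Krt1, 3.44, limma adjusted p = 0.0540). Log2 of their summed level ran from 14.29 to 16.48 in WT and from 16.50 to 17.47 in STAT3cKO. The groups were barely apart, the nearest libraries being WT 5 (16.48) and STAT3cKO 2 (16.50). Taken singly, 0 of the 6 markers were without overlap between the groups. All 7 basal markers were positive with none called (median 0.32, lowest p in Krt14, 1.30, limma adjusted p = 0.250), with sums of 13.09 to 14.91 and 14.25 to 15.75. Endothelial (8 genes, median 0.28, lowest p in Tek) and smooth muscle markers (7 genes, median −0.00, lowest p in Acta2) had no call. Hair shaft sums, with 5 of 8 markers tested and none called (lowest p in Krt85), ran from 0 to 18.33 in WT and from 0.77 to 17.72 in STAT3cKO. Both groups held libraries with and without hair shaft transcripts, but unevenly. The highest sums were in WT 4 (18.33) and in STAT3cKO 1, 3 and 5 (14.43, 17.72 and 14.21). Of these, STAT3cKO 5, STAT3cKO 1 and WT 4 had the highest Col1a1 values of all libraries, and STAT3cKO 3 had the lowest. Col1a1 minus Col3a1 was above 0 in WT 4 alone among WT libraries. It was also above 0 in STAT3cKO 2 and 4, whose hair shaft sums were low (1.47 and 0.77). None of the marker lists given here had a gene without a read in all 10 libraries. The part of cell makeup, hair phase and library in the matrix values above was not tested.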

How the data were processed

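Gene expression was measured in 10 libraries of whole mouse skin, 5 WT and 5 STAT3cKO, grouped by title. The authors deposited 1 table of gene symbols and values for each library. Bowtie2, bedtools and the build mm10 are named in the submitters' processing notes, while versions, annotation, strand use and scaling are not given there or in the labels. The deposited values behave as log2 of scaled reads plus 1, a unit read from the values: low values lay at whole reads (within 0.15) for 87.1 to 100% of values of up to 20 reads. Dividing linear totals by the worth of 1 read gave the depth, which covers counting error only, and values worth less than 0.5 of a read count as no read.

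Genes at 5 or more in at least 5 libraries entered a limma fit (version 3.58.1, R 4.3.3) with genotype as its term, a mean trend and robust moderation, with Benjamini-Hochberg adjustment over 11536 genes and calls at an adjusted p under 0.05. All adjusted p-values of genes are from that fit. Correlations used 100000 permutations over all 10 libraries, and every possible permutation where libraries were left out, 2-sided. The pseudocount understates changes of weak genes. Members and lists were chosen with earlier results of these data known, so lists are described by counts and medians without a test. Values in every library are given for Col1a1, Col1a2, Col3a1, called members, the 2 lowest p of each of the 6 groups, and members with an outlying library. From other lists called genes are named, otherwise the 3 (pathway lists) or 1 (marker lists) with the lowest p. Exceptions are marked, and 1 marker list is not reported here. Positions are from GENCODE M21 on mm10, in which 14 of the 41 genes share exon sequence with a gene on the other strand. Alternatives covered scaling, pseudocount, filter, moderation, a replicate block and left-out libraries.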

Additional observations from a re-analysis of the deposited data

Results flagged for a closer look

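In 6 of 82 groups of 5 libraries (41 genes in 2 genotypes) 1 library stood apart from the other 4 by a gap test, where chance gives about 1 in 20. STAT3cKO 2 accounted for 4 of them, all on the low side: Col4a2 at 7.20 against 10.14 to 11.22 in the other STAT3cKO libraries, Col6a1 at 0.064 (no read) against 7.85 to 10.52, Col7a1 at 1.30 (a single read) against 6.13 to 7.24, and Pcolce at 1.29 (a single read) against 8.47 to 9.25. Fbln1 was at 0.057 (no read) in WT 3, against 7.29 to 9.28 in the other WT libraries. Mmp2 was high in WT 2, at 10.27 against 9.52 to 9.73. STAT3cKO 2 and WT 3 are the libraries with the most tested genes without a read, 2617 and 1273.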

How the results depend on the processing

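Of 735 changes of matrix genes under 18 alternatives, 685 kept their direction and their side of the threshold, 10 kept the direction and lost the call, and 40 reversed sign, in 16 genes with small or uneven changes; the cause was not tested. Dpt was 1 of 41 genes called lower in the reported fit, and 0 were called lower without the mean trend and robust moderation (adjusted p 0.283), with the replicate number as a block (0.118) and without STAT3cKO 2 and WT 3 (0.108). The adjusted p of Serpinh1 was also above 0.05 without a filter (0.0820), with the stricter filter (0.0562), with the block (0.102), without STAT3cKO 2 and WT 3 (0.0998) and without trend and robust moderation (0.285), where that of Clec3b was 0.0747. Over the 10 fits that leave out a library the calls among the 41 ran from 0 to 1, those over all genes from 29 to 96 higher and 24 to 111 lower, against 61 and 53. Over all genes there were 95 higher and 81 lower after quantile normalization, 13 and 31 without trend and robust moderation, and 34 and 32 with the replicate block. With libraries brought to an equal total they were 76 and 39, so that 66.1% of calls were higher against 53.5%. Quantile normalization and equal totals each moved the median change of all genes by 0.11. Same-numbered WT and STAT3cKO libraries did not deviate together (r −0.15 to 0.02, and 0 of 5 matched best with their own number). The labels say nothing about pairing, and so few libraries cannot exclude it. Reversed changes after quantile normalization were Bgn 0.021 and Fn1 0.050, and with equal totals Col6a3 0.047, Bgn 0.073 and Fn1 0.068. Without STAT3cKO 2 and WT 3 they were Col5a2 0.083, Col6a3 0.32, Eln −0.086, Fbln1 −0.33, Bgn 0.066, Aspn 0.084 and Fn1 0.55. Leaving out a library reversed 15 genes, whose ranges were −0.017 to 0.68 in Col1a1, −0.031 to 0.66 in Col1a2, −1.23 to 0.044 in Col5a1, −0.71 to 0.086 in Col5a2, −0.32 to 0.38 in Col6a3, −0.069 to 2.55 in Col12a1, −0.0093 to 0.79 in Eln, −0.60 to 0.074 in Fbn1, −0.38 to 1.93 in Fbln1, −0.38 to 0.12 in Bgn, −0.41 to 0.33 in Fn1, −0.31 to 0.33 in Thbs2, −0.51 to 0.044 in Loxl1, −0.13 to 0.47 in Mmp2 and −0.43 to 0.065 in Timp2. The gap between genotypes in Col1a1 minus Col3a1 stayed at 1.25 to 1.74 and that in Col1a2 minus Col3a1 at 1.20 to 1.73 in these fits. The correlation of Col6a1 and Col6a2 passed after quantile normalization (r = 0.790) and without STAT3cKO 2 and WT 3 (r = 0.953), where that of Col6a1 and Col6a3 did not (r = 0.496). Depth limits values near that of a single read, 0.60 to 1.36 by library, such as Col7a1 and Pcolce in STAT3cKO 2.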
